A study of Mus musculus with 3 samples.

Results

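Transforming growth factor beta (Tgf-beta) signalling was described here through 9 genes chosen by their role in the pathway: the ligand Tgfb1, the receptors Tgfbr1 and Tgfbr2, the Smads Smad2, Smad3, Smad4 and Smad7, and the early targets Id1 and Id3. They were found by symbol, and all 9 were present once among the 12852 genes of the table. They were measured in B16F10, a mouse melanoma line grown in serum-containing medium. RNA sequencing covered 1 control library, titled siCtrl and labelled wild type, and 2 libraries of the same line labelled Med23 knockdown-1 and Med23 knockdown-2. Med23 is a subunit of Mediator, which links transcription factors to RNA polymerase II. The table's header does not separate the names of the knockdown columns, so these libraries are called first and second by their place. The labels do not say whether they were different siRNAs or separate cultures, so p-values measure only the spread between these libraries, which may be technical.

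In this pathway a dimeric ligand brings together a type II and a type I receptor kinase. The type I receptor phosphorylates Smad2 and Smad3, which enter the nucleus with Smad4 and regulate genes, while Smad7 blocks the receptor. Bone morphogenetic proteins (Bmps) use related receptors and the Smads Smad1, Smad5 and Smad9, and the Id genes are their best known early targets. In melanocytic cells the pathway is known for slowing division and for lowering pigment genes.

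Values were RPKM, reads scaled to transcript length and library size, so levels of different genes can be set side by side. The authors' values had the same distribution in each library, with a median gene at 4.20 RPKM, and carried no read depth. A total change in RNA therefore cannot be seen, and in a bulk culture fewer cells expressing a gene and less RNA per cell cannot be told apart. Log2 changes are of log2(RPKM + 1), knockdown against control, which understates changes of low genes. All 9 genes were among the 9722 with a mean of at least 1 RPKM, and each was at or above 1.96 RPKM in the control, so none entered only through the knockdown libraries. The test was limma with Benjamini-Hochberg adjustment over all tested genes and a threshold of 0.05. It takes its spread from the knockdown libraries and assumes that the lone control varies as they do. Across tested genes, log2 changes were lower for longer transcripts (Spearman -0.357) and higher for GC-rich ones (0.179), a description over genes that share libraries. The value after a correction for both is therefore given where it changes the call of a gene described or a list's counts.

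Med23 itself measured 5.23 RPKM in the control and 1.65 and 1.61 RPKM after knockdown, 3.20-fold lower on the RPKM scale (limma adjusted p = 0.00121, and 0.108 if the control SD is set 3 times as large as the knockdown one). Mitf, which directs pigment genes, measured 9.003 RPKM in the control and 4.23 and 3.51 RPKM after knockdown, a log2 change of -1.04 (limma adjusted p = 0.00297, and 0.186 with that larger SD). The 7 melanocyte markers were all detected in each library and summed to 6923 RPKM in the control and 2977 and 2868 RPKM after knockdown. Of 16 markers of immune, endothelial, epithelial and fibroblast cells the table lists 3. Cd68 was 16.9, 10.0 and 10.1 RPKM in the control, first and second knockdown library, and Pdgfra and Col1a1 were at or below 0.519 RPKM in each. The part of the lower melanocyte markers in the results below was not tested.

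Both receptors, Smad3 and Smad4 were lower after Med23 knockdown, whereas the target Id3 was several-fold higher. Id3 rose 5.75-fold in RPKM, Smad3 fell 2.15-fold, Tgfbr2 1.93-fold, Tgfbr1 1.77-fold and Smad4 1.49-fold, and Id1 rose 1.38-fold, a call kept under 3 of 8 alternative settings. Of the 9 genes, limma called 2 higher and 4 lower, and 3 (Tgfb1, Smad2 and Smad7) did not pass. Of all tested genes 50.3% passed, 26.3% higher and 24.0% lower, so the 6 of 9 are not read as particular to these genes. The median log2 change of the 9 was -0.27, against 0.01 over all tested genes. If the control library is instead given an SD 2 times as large as a knockdown library's, 2 of the 9 (Id3 and Smad3) passed, with 15.4% of all genes, and at 3 times Id3 alone passed (limma adjusted p = 0.0363), with 2.01% of all genes. After the correction for length and GC 6 of the 9 passed again, with 52.0% of all genes, but not the same 6. Tgfbr2 and Id1 no longer passed, while Tgfb1 and Smad7 did. In all 9 genes both knockdown libraries lay on the same side of the control, as did 90.8% of tested genes.

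**Figure D1:**
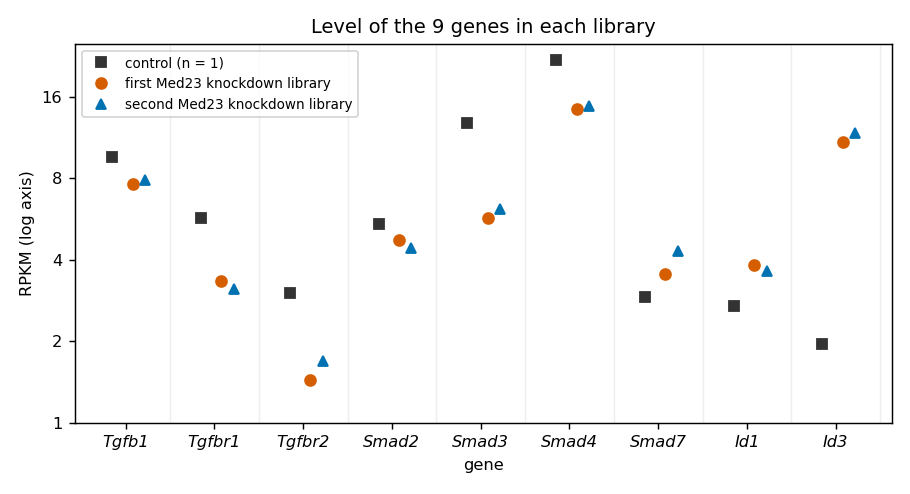
RPKM of each of the 9 genes (log axis) in the control library (square) and the first and second Med23 knockdown library (circle, triangle), with no averaging. Id3 goes from 1.96 RPKM in the control to 10.8 and 11.7 RPKM, while Smad3, Smad4, Tgfbr1 and Tgfbr2 are lower in both knockdown libraries.

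Promoter sequence is shown for the genes with the largest rise and the largest fall, Id3 and Smad3, and for the receptor pair, in which both genes fell. Each is the stretch of 250 bases before the start site, 5′ to 3′ on the gene's strand, from RefSeq on GRCm38.p6, a later build than the mm9 named in the submitters' processing notes. Windows were read for 5 of the 9 genes (Tgfb1, Tgfbr1, Tgfbr2, Smad3 and Id3), and for Tgfbr1, which has 2 windows, the more upstream one was used. The chromosome of Smad2, Smad4 and Smad7 was left out of this reading, and Id1 had no window in the set. The motif counts therefore say nothing about those genes. Capitals mark CAGAC, the core of the Smad binding element, and GGCGCC, a GC-rich Smad motif, on either strand. These motifs do not overlap each other here.
Id3, chr4:136143572-136143821, plus strand: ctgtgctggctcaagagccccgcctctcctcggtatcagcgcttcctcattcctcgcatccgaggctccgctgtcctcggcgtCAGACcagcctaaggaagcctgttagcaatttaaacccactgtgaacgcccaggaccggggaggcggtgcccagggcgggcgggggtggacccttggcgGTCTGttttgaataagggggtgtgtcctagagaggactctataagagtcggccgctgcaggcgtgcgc
Smad3, chr9:63757995-63758244, minus strand: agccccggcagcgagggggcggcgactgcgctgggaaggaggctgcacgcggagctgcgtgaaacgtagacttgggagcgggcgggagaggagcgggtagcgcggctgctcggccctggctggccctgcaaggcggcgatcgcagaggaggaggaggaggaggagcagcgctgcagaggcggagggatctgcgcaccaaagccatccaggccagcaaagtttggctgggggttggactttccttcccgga
Tgfbr1, chr4:47352972-47353221, plus strand: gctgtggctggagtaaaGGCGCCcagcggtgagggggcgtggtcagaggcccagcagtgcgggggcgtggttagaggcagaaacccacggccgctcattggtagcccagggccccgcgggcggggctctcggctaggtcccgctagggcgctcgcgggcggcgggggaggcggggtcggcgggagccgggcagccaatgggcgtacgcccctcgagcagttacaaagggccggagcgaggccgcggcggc
Tgfbr2, chr9:116175364-116175613, minus strand: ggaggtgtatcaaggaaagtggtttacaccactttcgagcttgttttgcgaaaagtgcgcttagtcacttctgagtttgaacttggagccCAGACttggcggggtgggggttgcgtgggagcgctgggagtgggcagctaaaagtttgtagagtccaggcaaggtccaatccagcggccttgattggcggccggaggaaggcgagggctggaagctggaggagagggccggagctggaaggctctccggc

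The Id3 window held CAGAC at 2 places, beginning 167 and 68 bases before the start, the second on the opposite strand. The Tgfbr2 window held it at 1 place, 160 bases before the start, and the windows of Smad3, Tgfbr1 and Tgfb1 had no match. This short motif occurred in 42.2% of the 32851 windows of the same length. GGCGCC was matched only in the Tgfbr1 window, 233 bases before the start, and in 9.59% of all windows. Both receptor windows held CCAAT at 2 places, 154 and 57 bases before the start in Tgfbr1 and 85 and 68 bases in Tgfbr2, and 33.8% of all windows held it. The letters CACGTG and CATGTG, which Mitf can bind, and TGACTCA, the site of Fos and Jun dimers, were in none of the 5 windows, against 6.02%, 12.3% and 4.46% of all windows. A match is a description of the letters, not a site in use.

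The ligand Tgfb1 (ENSMUSG00000002603) was 9.53 RPKM in the control, 7.58 RPKM in the first knockdown library and 7.90 RPKM in the second. Both knockdown libraries were below the control, by a log2 change of -0.27 (95% interval -0.52 to -0.02), and the adjusted p was 0.0708 by limma. After correction for length and GC the log2 change was -0.35 and limma's adjusted p was 0.018. The other isoforms were higher. Tgfb3, which acts through the same receptors, rose from 6.67 to 11.9 and 12.8 RPKM, a log2 change of 0.80 (limma adjusted p = 0.00293). Tgfb2, the isoform that depends most on the co-receptor Tgfbr3, rose from 0.631 to 1.57 and 1.74 RPKM, and only its knockdown values brought it past the filter. Tgfb1 made up 56.6% of the summed RPKM of the 3 isoforms in the control and 36.0% and 35.2% after knockdown, while Tgfb3 went from 39.6% to 56.5% and 57.0%. The sum itself measured 16.8 RPKM in the control and 21.1 and 22.4 RPKM after knockdown, so the most abundant isoform by RPKM was Tgfb1 in the control and Tgfb3 in both knockdown libraries.

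Tgfbr1 (ENSMUSG00000007613), the type I receptor kinase that phosphorylates Smad2 and Smad3, fell from 5.72 RPKM to 3.34 and 3.12 RPKM. The log2 change was -0.67 (SE 0.11, limma adjusted p = 0.00660). Tgfbr2 (ENSMUSG00000032440), the type II receptor that binds the ligand and activates Tgfbr1, fell from 3.01 RPKM to 1.43 and 1.69 RPKM, a log2 change of -0.65 (SE 0.12, limma adjusted p = 0.00981). Tgfbr1 stood at 1.90 times the RPKM of Tgfbr2 in the control and at 2.33 and 1.85 times after knockdown, so the control lay between the knockdown libraries. Their longest transcripts are 5756 and 8092 bases, against a median of 3383 bases over tested genes. After correction for length and GC, Tgfbr1 stood at -0.39 (limma adjusted p = 0.0188) and Tgfbr2 at -0.34, where it no longer passed (limma adjusted p = 0.0616).

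Smad3 (ENSMUSG00000032402), a receptor-activated Smad that binds DNA directly, showed the largest fall of the 9. It measured 12.8 RPKM in the control and 5.70 and 6.17 RPKM after knockdown, a log2 change of -0.99 (SE 0.11, limma adjusted p = 0.00189), the 354th lowest of the 9722 tested genes. Smad2 (ENSMUSG00000024563), its close relative, measured 5.42 RPKM in the control and 4.72 and 4.41 RPKM after knockdown. Its log2 change of -0.21 did not pass (95% interval -0.48 to 0.07, limma adjusted p = 0.170), and after correction for length and GC it was 0.16. The Smad2 transcript is 8089 bases long and that of Smad3 5090 bases. The interval of Smad2 did not reach that of Smad3, whose 95% interval was -1.26 to -0.73, although the difference between the genes was not tested. Smad3 stood at 2.36 times the RPKM of Smad2 in the control and at 1.21 and 1.40 times after knockdown.

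Smad4 (ENSMUSG00000024515), the partner shared by the Tgf-beta and Bmp Smads, was the most abundant of the 9 genes in every library. It fell from 21.8 RPKM to 14.4 and 14.8 RPKM, a log2 change of -0.55 (SE 0.09, limma adjusted p = 0.00544) and -0.54 after correction for length and GC. The knockdown libraries lay closer together for Smad4 than for any other of the 9, 0.04 apart on the log2 scale against a median of 0.09 over all tested genes. Smad7 (ENSMUSG00000025880), which recruits ubiquitin ligases to the receptor, had the widest gap of the 9, 0.22. It measured 2.91 RPKM in the control and 3.54 and 4.30 RPKM after knockdown. The log2 change of 0.33 did not pass (95% interval -0.02 to 0.67, limma adjusted p = 0.0991), and it was 0.35 with limma's adjusted p at 0.0382 after correction for length and GC. Relative to Smad3, the inhibitory Smad7 was at 0.228 of its RPKM in the control and at 0.621 and 0.698 after knockdown.

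The Bmp Smads did not move as one. Smad5 fell from 10.1 RPKM to 4.83 and 5.97 RPKM (log2 change -0.80, limma adjusted p = 0.00747), and the log2 change was -0.52 after correction for length and GC. Smad1 measured 2.36 RPKM in the control and 2.58 and 2.75 RPKM after knockdown (log2 change 0.12, limma adjusted p = 0.398). Smad9 and the inhibitory Smad6 had means under 1 RPKM and were not tested, and Smad6 was 0.746, 0.944 and 0.867 RPKM in the control, first and second knockdown library. Summed over Smad1, Smad2, Smad3, Smad4, Smad5 and Smad9, the level measured 52.8 RPKM in the control and 32.6 and 34.4 RPKM after knockdown. This sum uses RPKM with no length or GC correction.

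**Figure D2:**
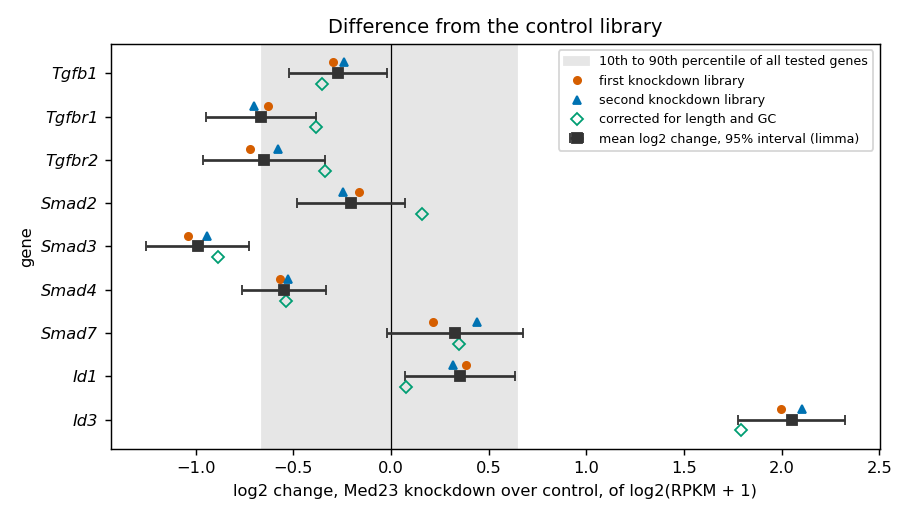
Log2 change (Med23 knockdown over control) of each of the 9 genes, as the mean with its 95% interval from limma (square), each knockdown library (circle, triangle) and the mean after correction for length and GC (open diamond). The grey band runs from the 10th to the 90th percentile of all tested genes (-0.66 to 0.65). Of the 9 genes Id3 at 2.05, Smad3 at -0.99 and, barely, Tgfbr1 at -0.67 lie outside it. Tgfbr2 at -0.65 lies just inside, and Tgfbr1 lies inside at -0.39 after the correction.

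Id3 (ENSMUSG00000007872), an inhibitor of basic helix-loop-helix factors, was the lowest of the 9 genes in the control and the second highest after knockdown. It rose from 1.96 RPKM to 10.8 and 11.7 RPKM (mean 11.3 ± 0.615, SD, n = 2). The size of this rise rests on 1 low control value, whose counting error is unknown without read depth. The log2 change was 2.05 (SE 0.11, limma adjusted p = 0.000304), 51st from the top among the 9722 tested genes. Id3 has a short transcript of 1278 bases with 55.6% GC, and after correction for both the log2 change was 1.79 (limma adjusted p = 3.77e-07). It passed under each of the 9 alternative settings with a test. Id1 (ENSMUSG00000042745), a relative of Id3 with the same mode of action, measured 2.71 RPKM in the control and 3.83 and 3.63 RPKM after knockdown. Its log2 change of 0.35 passed narrowly (95% interval 0.07 to 0.63, limma adjusted p = 0.0474). The call was kept under 3 of the 8 alternatives with a test, and after correction for length and GC the log2 change was 0.08 (limma adjusted p = 0.628). The Id1 transcript is 1160 bases long.

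Id2, the most abundant Id gene by RPKM, measured 19.1 RPKM in the control and 16.6 and 16.4 RPKM after knockdown, a log2 change of -0.20 that did not pass (limma adjusted p = 0.0966). After correction for length and GC Id2 was at -0.32 with limma's adjusted p at 0.0166. Id3 made up 8.24% of the summed RPKM of Id1, Id2 and Id3 in the control and 34.6% and 36.9% after knockdown, while Id2 went from 80.4% to 53.1% and 51.6%. These shares use RPKM with no length or GC correction. The share of Id1 was 11.4% in the control and 12.3% and 11.4% after knockdown. Id proteins bind and disable the E proteins encoded by Tcf3, Tcf4 and Tcf12. Tcf12 was the most abundant of these and fell from 55.8 RPKM to 43.6 and 38.1 RPKM, a log2 change of -0.44 (limma adjusted p = 0.0156). Tcf3 rose from 7.16 to 9.26 and 10.0 RPKM (log2 change 0.38, limma adjusted p = 0.0295), and Tcf4 stood at 2.53, 2.26 and 2.21 RPKM with a log2 change of -0.12. Neither call was kept after correction for length and GC, with limma adjusted p = 0.0981 for Tcf12 and 0.0541 for Tcf3.

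**Figure D3:**
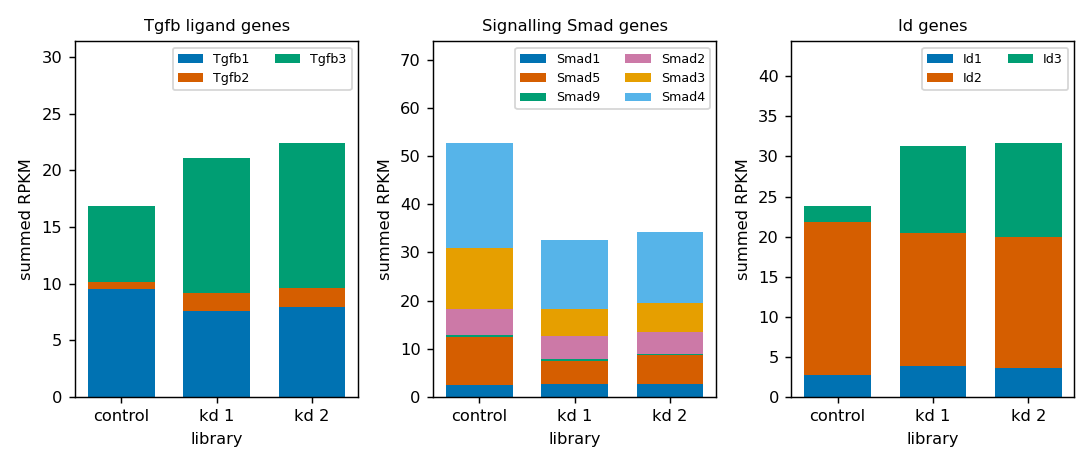
Summed RPKM of the Tgfb ligand genes, the signalling Smad genes and the Id genes in the control, the first (kd 1) and the second (kd 2) knockdown library, each bar 1 library stacked by gene. Tgfb3 and Id3 take larger parts of their bars after knockdown, and the Smad total goes from 52.8 to 32.6 and 34.4 RPKM. All bars are before correction for length and GC.

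Ranked by RPKM, the control order was Smad4, Smad3, Tgfb1, Tgfbr1, Smad2, Tgfbr2, Smad7, Id1 and Id3, from 1 library with no spread. After knockdown it was Smad4, Id3, Tgfb1, Smad3, Smad2, Smad7, Id1, Tgfbr1 and Tgfbr2. In that order the values of neighbours did not overlap between libraries, except for Smad7 and Id1, whose ranges of 3.54 to 4.30 and 3.63 to 3.83 RPKM did. Id3 rose from the ninth to the second place, and Tgfbr1 and Tgfbr2 went from the fourth and the sixth to the last places. By fold alone, 3 of the 9 genes (Id3, Smad3 and Tgfbr1) differed at least 1.5-fold in both knockdown libraries on the log2(RPKM + 1) scale, as did 20.4% of tested genes.

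The rest of the pathway was followed through 11 lists with 160 genes by role, of which 106 were in the table and 88 were tested. Of these, limma called 23 higher and 33 lower and did not call 32, against 26.3% higher and 24.0% lower among all tested genes. After correction for length and GC it called 26 higher and 31 lower, against 2646 higher and 2355 lower of 9614 genes tested. The median log2 change was -0.14, and 0.03 after the correction. The downward shift of the median was thus not seen after correction. Falls still outnumbered rises in the lists, unlike over all genes, but this difference was not tested. The counts of each list below are to be read beside the shares over all tested genes, and no list was tested as a set. With the control SD at 2 times rises outnumbered falls instead, 12 against 9, with 15.4% of all genes called. With the control SD at 3 times, 1 rise (Fn1) and 2 falls (Itgav and Cdkn1a) passed.

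Among the other receptors and co-receptors, 6 of 11 tested genes fell and 2 rose, while 3 did not pass. Over all tested genes 24.0% fell and 26.3% rose. The receptors and co-receptors had a median log2 change of -0.55, and -0.28 after correction for length and GC. Of the genes named from this list, the Bmp receptors had the largest falls. Bmpr2, the type II Bmp receptor, fell from 22.9 RPKM to 9.16 and 9.50 RPKM, a log2 change of -1.21 (limma adjusted p = 0.000759) and -0.65 after correction for its long transcript and GC content. Bmpr1a, a type I Bmp receptor, fell from 8.50 to 3.43 and 3.67 RPKM (log2 change -1.06, limma adjusted p = 0.00174). The activin receptors Acvr1b and Acvr2a fell with log2 changes of -0.67 and -0.57, the co-receptor Tgfbr3 with -0.55 and the Bmp co-receptor Rgmb with -0.59. Acvr2a did not pass after the correction (limma adjusted p = 0.122), and Tgfbr3 was then at -0.35. Acvrl1, given because the correction changed its call, passed after it (log2 change -0.28, limma adjusted p = 0.0268). The corrected counts were thus again 6 lower and 2 higher. Eng, a co-receptor best known from blood vessels, rose from 12.8 to 22.7 and 24.0 RPKM, and Acvr2b, an activin type II receptor, from 2.57 to 4.11 and 5.28 RPKM. Acvr1 measured 5.57 RPKM in the control and 5.64 and 6.01 RPKM after knockdown, with a log2 change of 0.05 (limma adjusted p = 0.702).

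Among all tested genes, 26.3% rose and 24.0% fell. Of 6 tested ligands other than Tgfb1, 3 rose, 2 fell and 1 did not pass. The rises include Tgfb2, which entered the test through its knockdown values. Bmp1, a protease of the extracellular matrix despite its name, rose with a log2 change of 0.89, and Gdf11 and Inha fell with -0.60 and -0.49. Among genes for ligand latency and activation, 2 of 9 rose, 4 fell and 3 did not pass, and after correction for length and GC 2 rose and 5 fell. Itgav, an integrin chain that can take part in activating latent Tgf-beta, fell from 20.8 RPKM to 5.35 and 5.36 RPKM. The log2 change was -1.78 (limma adjusted p = 0.000323, and 0.0381 with the control SD at 3 times). Ltbp4, a latent Tgf-beta binding protein, rose from 4.42 to 9.31 and 10.1 RPKM, and Thbs1, a matrix protein that can activate latent Tgf-beta, from 3.62 to 6.29 and 7.99 RPKM.

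Inhibitors and ubiquitin enzymes inside the cell formed a mixed list, since some of these enzymes, such as Usp4, Usp9x, Usp15 and Rnf111, favour signalling. Of 16 tested, 7 fell, 0 rose and 9 did not pass, and the median log2 change was -0.27. Over all tested genes 24.0% fell and 26.3% rose. After correction for length and GC 5 fell, 3 rose and 8 did not pass, and the median was -0.09. The rises after correction were Usp15 (0.55), Zeb2 (0.51) and Tgif1 (0.34), while Nedd4l (-0.02), Rnf111 (-0.23) and Trim33 no longer passed and Tgif2 (-0.33) did, genes given here because the correction changed their calls. Ski, a repressor that binds Smad complexes, fell from 20.0 RPKM to 6.10 and 7.77 RPKM, a log2 change of -1.41 (limma adjusted p = 0.00178). Smurf1, a ubiquitin ligase for Smads and receptors, fell with a log2 change of -0.49, while Smurf2 was at 0.01 and did not pass. Usp4 and Usp9x, enzymes that remove ubiquitin, fell with -0.81 and -1.14, and Usp9x was at -0.59 after the correction. Trim33, a ligase that acts on Smad4, fell with -0.71 and did not pass after the correction (limma adjusted p = 0.0653). Skil, a relative of Ski, had a mean under 1 RPKM and measured 1.02 RPKM in the control and 0.614 and 0.830 RPKM after knockdown. Outside the cell and at its membrane, 2 of 4 tested inhibitors rose and 0 fell, a list too short to set against those shares. Bambi, a decoy receptor without a kinase, rose from 2.88 RPKM to 6.03 and 6.04 RPKM (limma adjusted p = 0.00276), and Fstl1 from 10.8 to 18.0 and 19.4 RPKM.

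**Figure D4:**
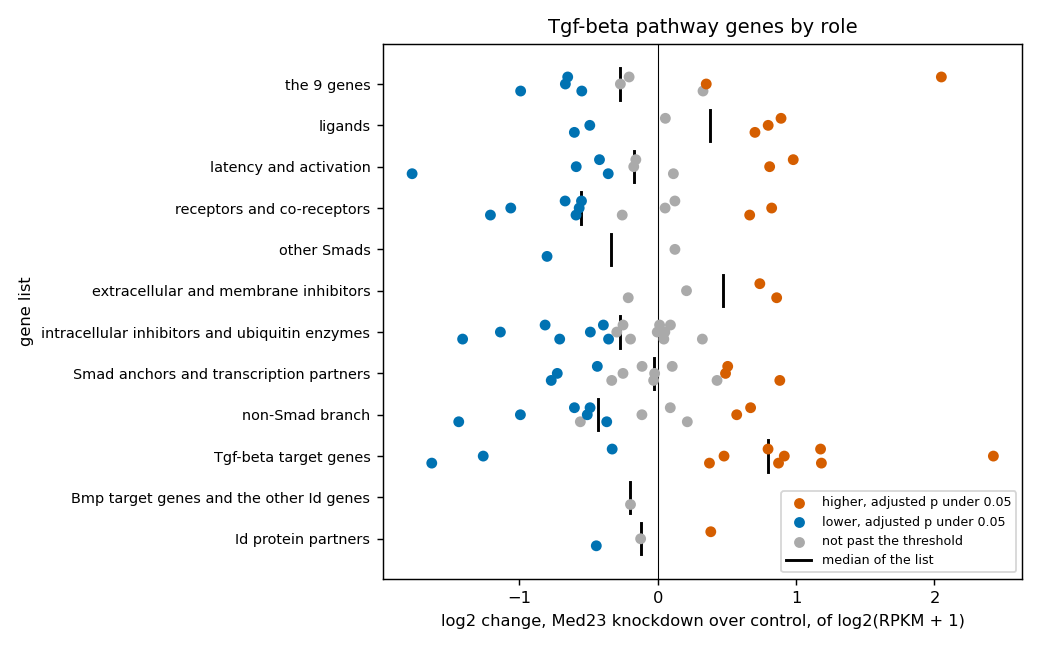
Log2 change (Med23 knockdown over control) of each tested gene, in rows by role with the 9 genes on top, coloured by limma's call, with a bar at each list's median. Receptors lie mostly to the left (6 of 11 lower) and Tgf-beta target genes mostly to the right (8 of 11 higher), before correction for length and GC. Over all tested genes 24.0% were lower and 26.3% higher. Of the 8 target genes, 2 were below 1 RPKM in the control, and 6 target genes were higher after the correction.

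All 11 tested genes of the Tgf-beta target list passed limma's test, 8 higher and 3 lower, against 50.3% of all tested genes, and the median log2 change was 0.80. After correction for length and GC 6 were higher and 3 lower, Junb and Cdkn1c no longer passed, and the median was 0.59. A further 6 of the 17 in the table were under the filter, and 2 of the 8 that rose, Ctgf and Cdkn1c, were below 1 RPKM in the control, so the filter favours rises. Fn1, the matrix protein fibronectin, rose from 38.7 RPKM to 205 and 220 RPKM, a log2 change of 2.43 (limma adjusted p = 7.98e-05, and 0.0108 with the control SD at 3 times). Ctgf, a matricellular protein, rose from 0.522 to 2.78 and 2.15 RPKM, so it entered the test through its knockdown values. Junb, an AP-1 subunit, rose with a log2 change of 0.37 that did not pass after correction for length and GC (limma adjusted p = 0.190). Klf10, named for its early induction by Tgf-beta, fell from 12.8 RPKM to 10.1 and 9.77 RPKM. Cdkn1a, an inhibitor of cyclin-dependent kinases, and Bhlhe40, a repressor of the clock, also fell, with log2 changes of -1.63 and -1.26. Of these target genes many also respond to other signals. The list was not split by whether Tgf-beta raises or lowers a gene, so its counts do not give a direction of signalling.

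The shares over all tested genes were 26.3% higher and 24.0% lower. Of 13 tested Smad anchors and transcription partners, 3 rose and 3 fell (23.1% each), near those shares, and 7 did not pass. After correction for length and GC 5 rose and 2 fell. Of the 3 rises before correction, Runx2 was at 0.982 RPKM in the control and 1.72 and 1.92 RPKM after knockdown. It therefore entered the test through its knockdown values. Dab2, an adaptor of the receptors, rose with a log2 change of 0.88, and E2f5, a partner of Smad3, and Zfyve16, an endosomal anchor, fell with -0.77 and -0.73. Zfyve16 was at -0.42 after correction for length and GC. In the branch that does not use Smads, 6 of 12 tested genes fell, 2 rose and 4 did not pass, and after correction for length and GC 6 fell and 3 rose. Map2k4, a kinase that activates Jnk, fell from 9.14 RPKM to 2.70 and 2.79 RPKM (log2 change -1.44, limma adjusted p = 0.000746). Pard6a, a polarity protein bound by the receptors, rose from 5.36 to 8.62 and 9.67 RPKM. The log2 change of Pard6a was 0.67, and 0.41 after the correction.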

How the data were processed

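RNA was extracted with Trizol and columns, and libraries followed the Illumina protocol, per the labels' protocols. The deposited values were RPKM made by the authors. CASAVA 1.4, TopHat, Cufflinks and mm9 are named in the submitters' processing notes. The normalization step was not given in the sources used here, but the sorted columns were equal within 1e-09 in 95.3% of positions, so the libraries had been quantile normalized. Depth is unknown, and no counting interval is given. Genes were handled by ID.

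Values were tested as log2(RPKM + 1) in limma 3.58.1 (R 4.3.3), with an intensity trend, for genes averaging 1 RPKM or more. There was 1 residual degree of freedom and a prior of 4.37. The step was run on simulated data in which few genes changed and the control varied as the knockdown libraries did. That run therefore does not bear on a control that varies more. Length and GC came from the longest GENCODE M21 transcript, known for 12606 genes (98.1%), and were corrected by loess (span 0.5). No exon of the 9 genes overlapped another gene in that annotation.

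The members and lists were chosen with earlier results of these data known. Named were the 9 genes, Med23, Mitf, a fixed set of pathway genes (Pmepa1, Tgfbi and Id4 of that set have no value here), and up to 3 others of each list past the threshold, by the smaller ratio of the libraries. Of the genes so named, 2 are not reported here. Python 3.11.15, pandas 2.3.3, numpy 2.4.6 and matplotlib 3.10.9 were used.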

Additional observations from a re-analysis of the deposited data

How the results depend on the processing

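The settings varied were the pseudocount (0.1), the filter (none, or 5 RPKM), the intensity trend, the scaling (normalized again, or centred on the median gene), the SD assumed for the control (2 or 3 times as large), a length and GC correction, the fold limit and the knockdown libraries used. Of 94 values of the 9 genes, 78 kept their direction and, where a test was run, their side of the threshold. A further 13 lost the call, 2 gained it and 1 reversed, which was Smad2 at 0.16 after the length and GC correction. Values with 1 knockdown library left out are among those counted but had no test, so they have no side of the threshold to keep. Of 487 values of the other named genes, likewise with untested ones among them, 420 were kept, 64 lost the call, 1 gained it and 2 reversed. The reversed values were of Smurf2, which ranged from -0.021 to 0.048 with either knockdown library left out, and Tcf4, at 0.31 after the correction. For Smad2 and Tcf4 the cause was not tested. The 2 rises among the 9 became 1 with no filter, with a minimum of 5 RPKM (where Id1 was not tested), with centring, and with a control SD of 2 or 3 times. The 4 falls became 2 with a minimum of 5 RPKM, where both receptors were not tested, 1 with a control SD of 2 times and 0 with 3 times. After the length and GC correction the counts were again 2 and 4, but with Id3 and Smad7 higher and Tgfb1, Tgfbr1, Smad3 and Smad4 lower. With the control SD at 2 times, the pathway lists gave 12 rises and 9 falls and all genes 1493 calls. With 3 times these were 1, 2 and 195, against 23, 33 and 4888 as reported. The count of the 9 genes past 1.5-fold in both libraries was 3, with 5 at a lower limit, 1 at 2-fold, and from 3 to 4 when 1 knockdown library was left out. How much a control library varies cannot be read from 1 library. With no depth the counting error of low genes such as Id1, Tgfbr2 and, in the control, Id3 is unknown. No paired analysis was possible because the control has 1 library and the knockdown columns carry no replicate number.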
